A study of Homo sapiens with 16 samples.

Results

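The genes described here encode kinesins, centromere proteins (CENP) and a small set of spindle, checkpoint and kinase proteins of mitosis. They are the protein-coding genes of both deposited tables whose symbol is KIF followed by a number and at most a letter and a digit, or CENP followed by 1 letter, together with ASPM, TPX2, NUMA1, BUB1, BUB1B, BUB3, MAD2L1, PLK1, AURKA and AURKB. The rule uses gene type and name, not values, and found 65 of 16324 genes, of which 13210 are protein-coding. There were 34 KIF genes, 21 CENP genes and the 10 named genes. All 65 have values in both tables. The filter on low counts behind the tables is not stated, and genes of these families without a row were not analysed here.

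The study measured RNA bound by a tagged protein (RIP-seq) in cells labelled UM-SCC-1, a head and neck squamous carcinoma line. Its 16 libraries fall into 6 groups. Cells made to express Strep-tagged ALKBH5, an RNA demethylase acting on m6A, gave 3 pull-down and 3 input libraries, and cells with Strep-tagged RBM33, an RNA-binding protein, gave 2 and 2. Cells with the tagged empty vector, Strep-Vec-1, gave 3 pull-down and 3 input libraries. All 6 groups share lentiviral infection and puromycin selection. The pull-down used StrepTactin-XT and the input groups are labelled with no treatment. Whether the cells were pooled or grown from 1 clone, and whether replicates are separate cultures, is not given in the sources used here. The p-values may therefore measure technical spread only. The design text also names cells with RBM33 knockdown, which were not analysed here.

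The files are 2 tables of the authors' own comparisons, 1 for ALKBH5 and 1 for RBM33, each labelled siCtrl, a word found in no sample title. Each gene has a log2 fold change with its F statistic, p-values and mean abundance as log2 CPM. Nothing is given for a single library, so depth is unknown and no value by sample can be shown. Which fractions were compared, in which direction, and whether the vector pull-down was subtracted are not written in them. Signs are therefore printed as deposited, and a gene is called positive or negative when the authors' adjusted p was under 0.05. A pair of values printed without a bait is that of the ALKBH5 table and then of the RBM33 table. The 95% intervals quoted were worked out from the fold change and F and are approximate. Among squamous epithelium markers, DSC3 has a row in the tables used here, and KRT5, KRT14 and TP63 have none. Of 8 genes chosen to mark an embryonic kidney line, 6 have one, among them NEFL at an average log2 CPM of 8.10 in the authors' deposited table on ALKBH5 and 7.42 in that for RBM33. Of 6 markers each, 3 fibroblast and 1 leukocyte genes have a row. The part of these cells' identity in the values below was not tested.

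Kinesins are motors that walk along microtubules or take their ends apart, and they carry cargo in resting cells and move chromosomes in dividing ones. The centromere is marked by the histone variant CENP-A, on which a stable set of CENP proteins assembles and recruits the outer kinetochore, the structure that grips spindle microtubules. The spindle checkpoint holds anaphase until every kinetochore is attached, and the Aurora and Polo kinases time these steps.

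These mRNAs split in both directions. In the authors' deposited table on ALKBH5, 24 of the 65 genes were positive, 23 negative and 18 not called. The corresponding shares over all genes of that table were 30.5% positive and 29.1% negative, and over protein-coding genes 27.5% and 33.3%. For RBM33 the counts in the authors' deposited table were 20 positive, 18 negative and 27 uncalled, against 24.0% positive and 27.0% negative over all genes and 21.5% and 31.2% over protein-coding genes. Among the 65 genes, positive calls made up 36.9% with ALKBH5 and 30.8% with RBM33, and negative calls 35.4% and 27.7%, so the negative shares lay near those of protein-coding genes. The median log2 fold change of the 65 genes was 0.13 for ALKBH5 and 0.12 with RBM33 in the authors' deposited tables, beside -0.08 and -0.13 for protein-coding genes. Their range was -1.71 to 1.76 for ALKBH5 and -2.13 to 1.86 for RBM33.

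Set side by side, 19 genes were positive for both baits in the authors' deposited tables and 16 were negative in both. These are 29.2% and 24.6% of the 65 genes, beside 19.1% and 27.6% of protein-coding genes. A further 15, or 23.1%, were called in neither, beside 33.3% of protein-coding genes. Of the rest, 5 were positive for ALKBH5 only, 1 was positive for RBM33 only, 7 were negative for ALKBH5 only and 2 were negative for RBM33 only, and none was called in opposite directions, as were only 2 of the 13210 protein-coding genes. Whether the tables share libraries is not stated, and differences between them were not tested because no library has values of its own in them.

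**Figure D1:**
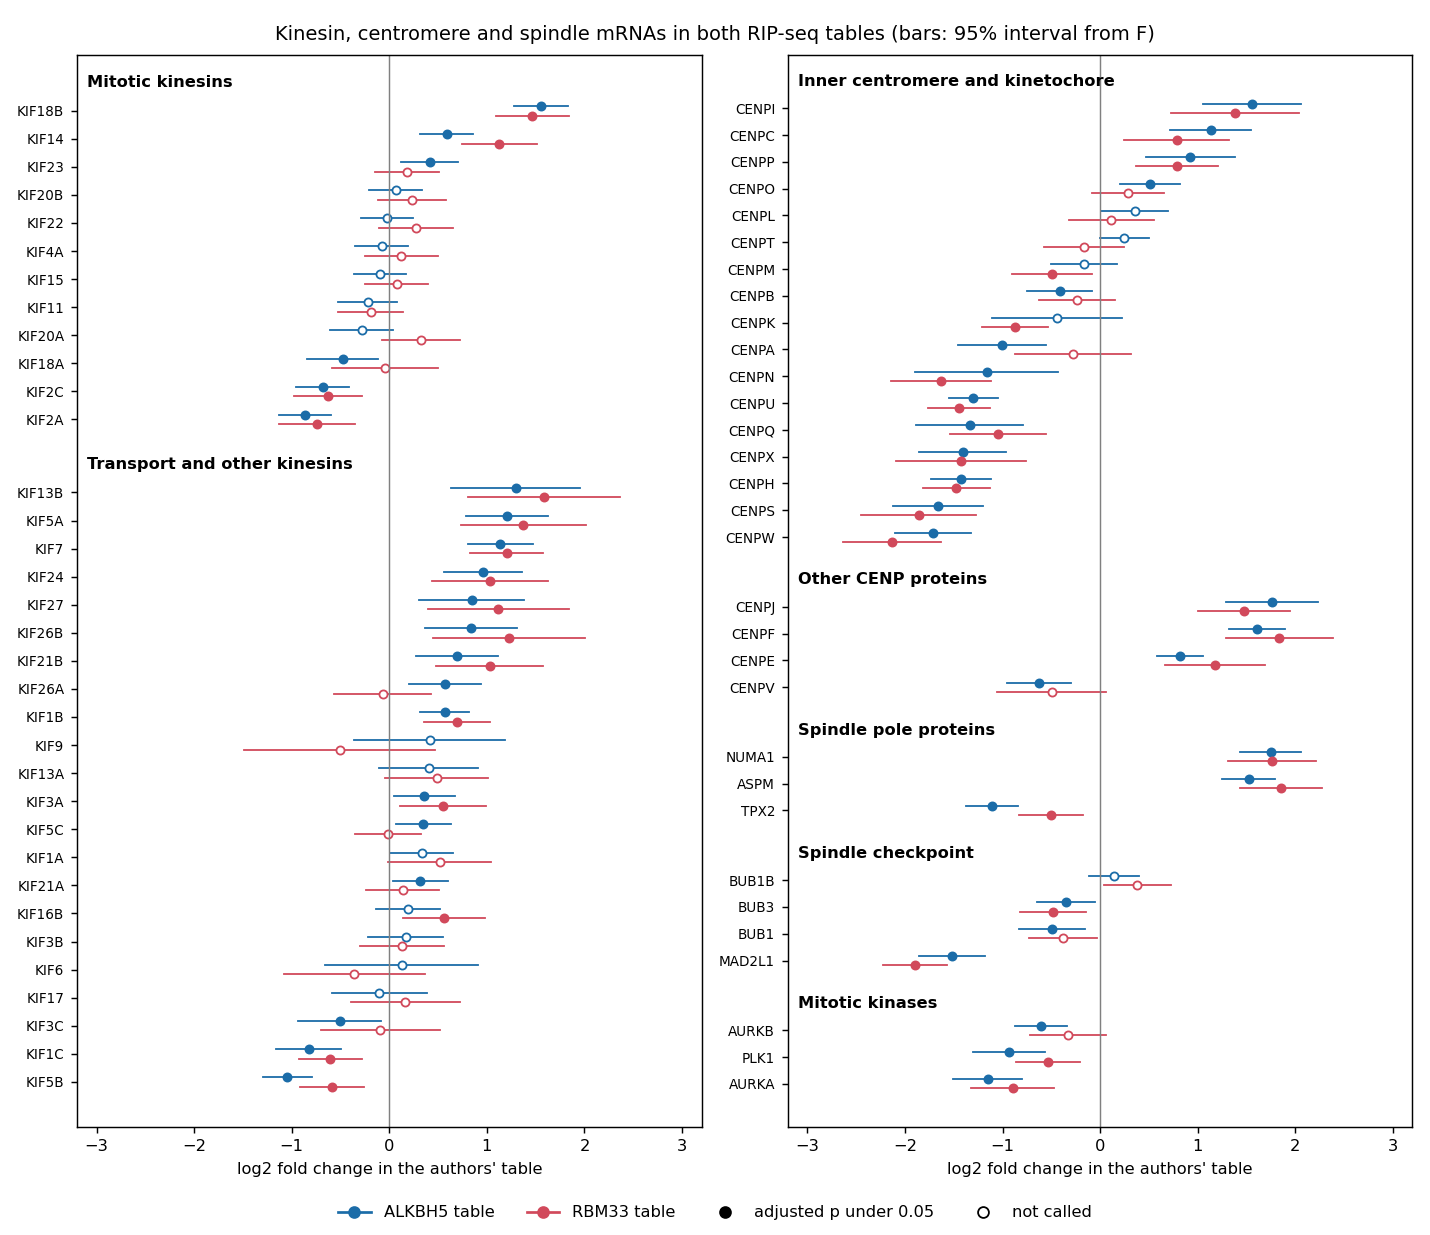
Log2 fold change (x axis) of each of the 65 genes, grouped by role (y axis), in the ALKBH5 and RBM33 tables; filled points have an adjusted p under 0.05 and bars are the 95% interval worked out from F. CENPJ, CENPF, NUMA1 and ASPM lie to the right of 1 in both tables, and CENPW, CENPS, CENPX, CENPH, CENPU and MAD2L1 lie to the left of -1.

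The 3 spindle pole genes fell on both sides of 0. NUMA1, which tethers microtubule minus ends at spindle poles, stood at 1.75 for ALKBH5 (adjusted p = 4.14e-07) and 1.76 for RBM33 (adjusted p = 4.21e-05) in the authors' deposited tables. ASPM, a spindle pole protein whose loss causes primary microcephaly in humans, stood at 1.52 (adjusted p = 4.3e-07) and 1.86 (adjusted p = 1.93e-05, a 3.62-fold value) in the authors' deposited tables. TPX2, which activates Aurora A and nucleates spindle microtubules, had the opposite sign, with ALKBH5 at -1.11 (adjusted p = 5.36e-06) and RBM33 at -0.50 (adjusted p = 0.0159) in the authors' deposited tables. In the tables' build, hg38, NUMA1 spans chromosome 11 from 72002864 to 72080693 and ASPM chromosome 1 from 197084127 to 197146694, both on the minus strand. Of the 65 genes, 23 overlap another listed gene, 8 of them on the same strand and 17 on the opposite one. NUMA1 overlaps 3 genes on the opposite strand, of which IL18BP stood at 4.19 and 3.87 in the authors' deposited tables, while LRTOMT (-0.18 and 0.09) and AP000812.4 (-0.76 and 1.02) were not called. ASPM overlaps a pseudogene on its own strand, SEPTIN14P12, at 2.29 and 2.39 in the authors' deposited tables. The strand setting of the counting is not given in the sources used here, and reads of overlapping genes may be mixed.

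Among the CENP proteins outside the inner kinetochore, 3 of 4 were positive for both baits in the authors' deposited tables, beside 19.1% of protein-coding genes. CENPE and CENPF lie in the longest of 5 classes of listed length, where 52.6% and 46.8% of protein-coding genes were positive. From the medians of their classes, CENPF, CENPJ and CENPE stood at 1.06, 1.83 and 0.28 for ALKBH5. For RBM33 these values were 1.30, 1.60 and 0.63. CENPF, a large protein of the outer corona of the kinetochore, stood at 1.61 for ALKBH5 (adjusted p = 3.75e-07, a 3.04-fold value) and 1.84 for RBM33 (adjusted p = 0.000111, a 3.57-fold value) in the authors' deposited tables. CENPJ, which builds centrioles, had 1.76 and 1.47, the first being the highest of the 65 genes in the authors' deposited table on ALKBH5. The kinesin of this group, CENPE, which carries chromosomes to the spindle equator, had 0.82 and 1.18 in the authors' deposited tables. CENPV, a microtubule-associated protein, was negative for ALKBH5 at -0.63 (adjusted p = 0.00283) and not called for RBM33 at -0.50 (adjusted p = 0.127) in the authors' deposited tables. CENPV lay 0.18 above the median of protein-coding genes of similar listed length in the ALKBH5 table, so its sign turns on that reference. It also overlaps PIGL on the opposite strand, which was positive at 1.74 and 1.39 in the authors' deposited tables.

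More inner centromere and kinetochore genes were negative than positive. Of 17 genes, 9 were negative and 4 positive for ALKBH5, and 9 were negative and 3 positive with RBM33 in the authors' deposited tables. The negative share was 52.9% in each table, beside 33.3% and 31.2% of protein-coding genes, and the median log2 fold changes were -0.44 and -0.49. These genes are short, with a median listed length of 3483 bases beside 5228 for protein-coding genes. In the shortest of 5 length classes, which holds 8 of the 17, protein-coding genes were negative in 53.6% with ALKBH5 and 52.3% with RBM33. Measured from the median of each gene's length class, the medians of the 17 genes were -0.08 and -0.04. CENPA, the centromeric histone, stood at -1.01 with ALKBH5 (adjusted p = 0.00101) and -0.28 with RBM33 (adjusted p = 0.424) in the authors' deposited tables. CENPB, which binds a short motif of alpha-satellite DNA, stood at -0.42 (adjusted p = 0.0329) and -0.24 (adjusted p = 0.283) there, and lay 0.40 above the median of its length class for ALKBH5. CENPC, which bridges the CENP-A nucleosome and the outer kinetochore, was positive in both, with 1.13 (adjusted p = 0.000187) and 0.78 (adjusted p = 0.0196) in the authors' deposited tables.

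Subunits of the same complex could differ in sign. Whether they do so more or less often than unrelated protein-coding genes was not tested. In the complex of CENP-H, CENP-I, CENP-K and CENP-M, which links CENP-C to the rest of the inner kinetochore, CENPI stood at 1.56 for ALKBH5 (95% interval 1.06 to 2.06) and 1.38 for RBM33 (0.72 to 2.04) in the authors' deposited tables. Its partner CENPH stood at -1.42 (-1.73 to -1.12) and -1.47 (-1.82 to -1.13) there, so the intervals of these 2 genes do not meet. CENPK was not called for ALKBH5 at -0.44 (adjusted p = 0.25) and negative for RBM33 at -0.87 (adjusted p = 0.000669) in the authors' deposited tables. CENPM had -0.16 (adjusted p = 0.389) and -0.49 (adjusted p = 0.0466) in them, and for RBM33 it lay 0.41 above the median of its length class.

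The complex of CENP-O, CENP-P, CENP-Q and CENP-U, which binds the Polo kinase at centromeres, was divided as well. Either call was common in the ALKBH5 table, where 27.5% of protein-coding genes had a positive one beside 33.3% with a negative one. The RBM33 table held 21.5% beside 31.2%. CENPP was positive at 0.92 for ALKBH5 and 0.79 for RBM33, and CENPO was positive at 0.51 for ALKBH5 (adjusted p = 0.00779) and not called at 0.29 for RBM33 (adjusted p = 0.174) in the authors' deposited tables. CENPU was negative in both, at -1.30 (adjusted p = 7.5e-07) and -1.44 (adjusted p = 1.63e-05), as was CENPQ at -1.34 and -1.05 in the authors' deposited tables. Of CENPL and CENPN, which together read the CENP-A nucleosome, 1 was called. CENPN was negative at -1.16 and -1.63, and CENPL was not called at 0.35 (adjusted p = 0.0732) and 0.12 (adjusted p = 0.653) in the authors' deposited tables. On the opposite strand, CENPN overlaps AC092718.8 (-1.72 and -1.85), AC009070.1 (-2.75 and -2.41) and CMC2 (-0.36 and -0.64). On its own strand it overlaps AC092718.4 (0.02 and 0.43), and reads of these genes may be mixed.

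In the histone-fold complex of CENP-T, CENP-W, CENP-S and CENP-X, 3 of 4 genes were negative for both baits in the authors' deposited tables. These 3, CENPW, CENPS and CENPX, lie in the shortest length class, where 53.6% and 52.3% of protein-coding genes were negative. CENPT is longer, at 5660 bases. From the median of their class, the 3 stood at -0.90, -0.84 and -0.60 for ALKBH5 and -1.23, -0.96 and -0.53 for RBM33. CENPW, the lowest of the 65 genes, stood at -1.71 with ALKBH5 (adjusted p = 3.16e-06) and -2.13 with RBM33 (adjusted p = 2.54e-05) in the authors' deposited tables. With a listed length of 854 bases, at chromosome 6 from 126340115 to 126348875, it is also the shortest of them. CENPS had -1.66 and -1.86, and CENPX had -1.41 and -1.42 in the authors' deposited tables. CENPT, the subunit that carries the long arm to the outer kinetochore, was not called at 0.25 (adjusted p = 0.0817) and -0.17 (adjusted p = 0.486) in them. CENPS shares its strand and position with a readthrough gene, CENPS-CORT, at -1.60 and -2.03 in the authors' deposited tables, and how reads were divided between the 2 genes is not stated.

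None of the 4 checkpoint genes was positive, and 3 were negative for ALKBH5 and 2 for RBM33. Over protein-coding genes, 27.5% and 21.5% were positive and 33.3% and 31.2% negative. From the length-class medians, the medians of the 4 genes were -0.60 and -0.62. MAD2L1, the MAD2 protein that inhibits the anaphase-promoting complex, was the lowest, at -1.52 for ALKBH5 (adjusted p = 2.86e-06) and -1.90 for RBM33 (adjusted p = 6.03e-06) in the authors' deposited tables. BUB3, a scaffold of the checkpoint, was negative in both at -0.35 (adjusted p = 0.0415) and -0.48 (adjusted p = 0.0212) in the authors' deposited tables. The kinase BUB1 was negative for ALKBH5 at -0.49 (adjusted p = 0.0147) and not called for RBM33 at -0.38 (adjusted p = 0.0672) in the authors' deposited tables. BUB1B, its relative BubR1, was not called in either at 0.14 (adjusted p = 0.315) and 0.38 (adjusted p = 0.0632) in them. All 3 kinase genes were negative for ALKBH5 and 2 for RBM33, beside 33.3% and 31.2% of protein-coding genes. AURKB and AURKA are short, in length classes where 53.6% and 40.7% of protein-coding genes were negative for ALKBH5. From the length-class medians, the medians of the 3 genes were -0.79 and -0.41. AURKA, the Aurora kinase of spindle poles, had -1.15 and -0.89, and PLK1, the Polo kinase, had -0.94 and -0.53, each called in both of the authors' deposited tables. AURKB, the kinase of the chromosomal passenger complex, was negative with ALKBH5 at -0.61 (adjusted p = 0.000879) and not called with RBM33 at -0.33 (adjusted p = 0.141) in the authors' deposited tables, and lay 0.21 above the median of its length class for ALKBH5.

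The kinesins of mitosis were called in equal number in each direction. Of 12 genes, 3 were positive and 3 negative with ALKBH5 in the authors' deposited tables, and 2 and 2 with RBM33. The shares were 25.0% in each direction with ALKBH5, beside 27.5% positive and 33.3% negative protein-coding genes, and 16.7% with RBM33, beside 21.5% and 31.2%. KIF18B, which shortens astral microtubules, stood highest at 1.56 (adjusted p = 4.18e-07) and 1.47 (adjusted p = 3.92e-05) in the authors' deposited tables. KIF14, a motor of cytokinesis, was positive at 0.59 (adjusted p = 0.00115) and 1.13 (adjusted p = 0.000255), and KIF23, a subunit of centralspindlin, at 0.41 for ALKBH5 (adjusted p = 0.0182) but not for RBM33 (0.19, adjusted p = 0.326) in the authors' deposited tables. The microtubule-depolymerising kinesins KIF2A and KIF2C were negative in both, at -0.86 and -0.74 and at -0.68 and -0.63 in the authors' deposited tables. KIF18A, which dampens chromosome oscillation at the spindle equator, was negative for ALKBH5 at -0.48 (adjusted p = 0.0252) and not called for RBM33 at -0.05 (adjusted p = 0.892) in the authors' deposited tables.

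The bipolar spindle motor KIF11 was not called, at -0.22 (adjusted p = 0.186) and -0.19 (adjusted p = 0.31) in the authors' deposited tables. Nor were KIF15, which can take over from KIF11, the chromosome-arm motors KIF4A and KIF22, or the cytokinesis motors KIF20A and KIF20B. These 5 lay between -0.29 and 0.07 with ALKBH5 and between 0.08 and 0.33 with RBM33 in the authors' deposited tables.

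Positive calls outnumbered negative ones among the transport and other kinesins. Of 22 genes, 12 were positive and 3 negative for ALKBH5, and 10 were positive and 2 negative with RBM33 in the authors' deposited tables. The positive shares were 54.5% and 45.5%, beside 27.5% and 21.5% of protein-coding genes, and the medians were 0.38 and 0.50. Their median listed length was 8159 bases, and 16 of the 22 lie in the 2 longest of 5 length classes, where protein-coding genes were positive in 35.8% and 52.6% with ALKBH5 and 27.6% and 46.8% with RBM33. Measured from the median of each gene's length class, the medians of the 22 genes were 0.09 and 0.21. KIF13B, a cargo motor of the kinesin-3 family, had 1.30 (adjusted p = 0.00248) and 1.58 (adjusted p = 0.00307), though its level was low, at 0.719 and 0.695 CPM per kilobase in the authors' deposited tables. KIF7, which acts at the tip of the primary cilium in Hedgehog signalling, had 1.14 (adjusted p = 2.61e-05) and 1.20 (adjusted p = 0.000147) in the authors' deposited tables. KIF7 overlaps TICRR on the opposite strand, which stood at 1.77 and 1.78 in them. KIF24, which restrains cilium growth from centrioles, had 0.96 and 1.04, KIF27, a relative of KIF7, had 0.84 and 1.12, and KIF21B, a regulator of microtubule growth, had 0.69 and 1.03 in the authors' deposited tables. KIF26B, a kinesin of the same family as KIF26A, had 0.84 and 1.23, with all 4 of these genes positive in both tables.

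**Figure D2:**
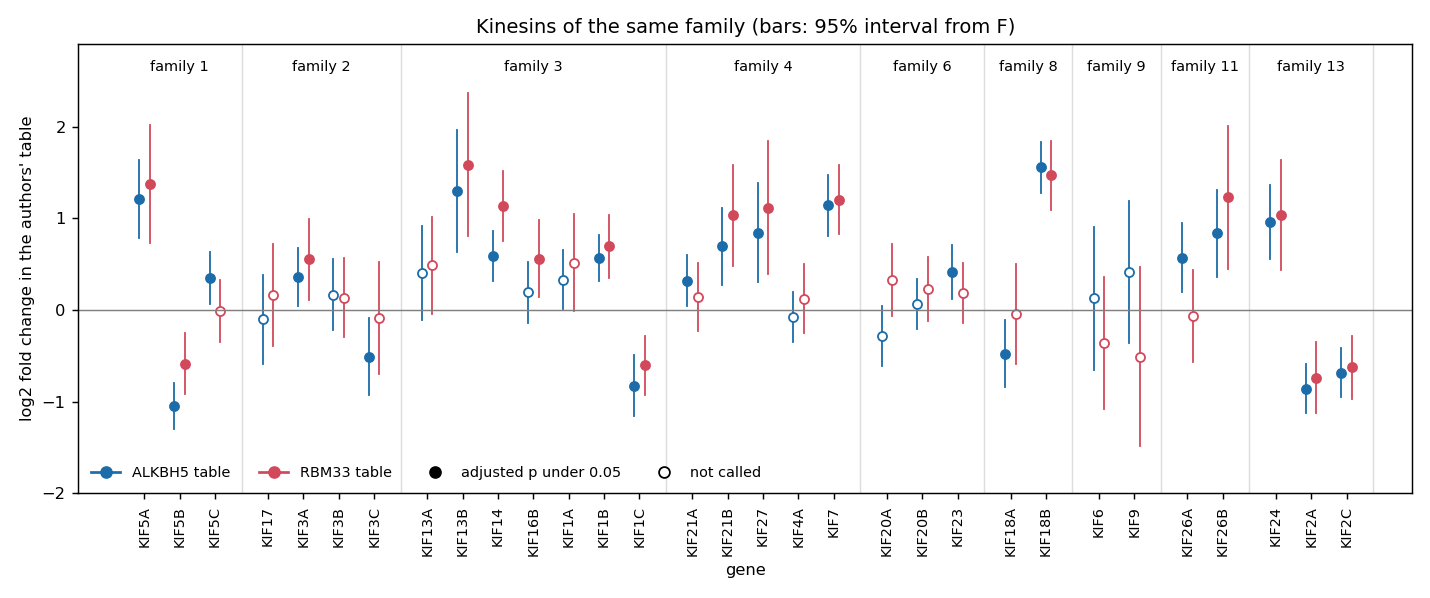
Log2 fold change (y axis) of kinesins that share a family with another listed kinesin (x axis), in the ALKBH5 and RBM33 tables; filled points have an adjusted p under 0.05 and bars are the 95% interval worked out from F. Within family 1, KIF5A is positive and KIF5B negative in both tables, and within family 13, KIF24 is positive while KIF2A and KIF2C are negative.

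Close relatives could carry opposite signs. Of 9 kinesin families with more than 1 listed gene, 5 held both positive and negative calls for ALKBH5 and 3 did so with RBM33 in the authors' deposited tables. Calls of either sign were common among protein-coding genes, at 27.5% positive beside 33.3% negative in the ALKBH5 table. In the RBM33 table these shares were 21.5% and 31.2%. How often unrelated genes in groups of like size would hold both signs was not worked out. The family counts therefore do not show whether relatives differ more or less than other genes. The 3 heavy chains of conventional kinesin are a family with both signs. KIF5A stood at 1.21 for ALKBH5 (95% interval 0.78 to 1.63) and 1.37 for RBM33 (0.73 to 2.01) in the authors' deposited tables. KIF5B, the ubiquitous heavy chain, stood at -1.04 (-1.29 to -0.80) and -0.59 (-0.91 to -0.26) in them. KIF5C, a heavy chain enriched in neurons, was positive for ALKBH5 at 0.35 (adjusted p = 0.0347) and lay at -0.01 (adjusted p = 0.954) with RBM33 in the authors' deposited tables. With a listed length of 33151 bases, KIF5C lay 0.19 below the median of its length class for ALKBH5 (-0.19 on the log2 scale). Differences between genes were not tested. KIF5A lies on chromosome 12 from 57546026 to 57586633 and overlaps DCTN2 on the opposite strand, which had -0.50 and -0.50 in the authors' deposited tables.

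The KIF1 motors, which carry vesicles, divided in the same manner. KIF1B was positive at 0.57 (adjusted p = 0.000996) and 0.69 (adjusted p = 0.00308), and KIF1C negative at -0.83 (adjusted p = 0.000424) and -0.60 (adjusted p = 0.00527) in the authors' deposited tables. KIF1A was not called at 0.33 (adjusted p = 0.0741) and 0.52 (adjusted p = 0.0938) in them. Among the kinesin-2 motors of intraflagellar and other transport, KIF3A was positive at 0.36 (adjusted p = 0.0479) and 0.55 (adjusted p = 0.0385) in the authors' deposited tables, close to the threshold. Its partner KIF3B was not called at 0.17 and 0.13, and KIF3C was negative for ALKBH5 only, at -0.51 (adjusted p = 0.0384) and -0.09 (adjusted p = 0.808) in the authors' deposited tables.

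The other transport and remaining kinesins were called in 1 table or neither. KIF26A was positive for ALKBH5 at 0.57 (adjusted p = 0.0115) and had -0.07 (adjusted p = 0.824) with RBM33 in the authors' deposited tables. KIF21A was positive for ALKBH5 at 0.32 (adjusted p = 0.0475), which is 0.22 below the median of its length class (-0.22 on the log2 scale), and had 0.14 (adjusted p = 0.524) with RBM33 in the authors' deposited tables. KIF16B, an endosome motor, was positive for RBM33 at 0.56 (adjusted p = 0.0295) and not for ALKBH5 at 0.19 (adjusted p = 0.3) in the authors' deposited tables. KIF13A, KIF17, KIF6 and KIF9 were called in neither, with values from -0.10 to 0.42 for ALKBH5 and from -0.51 to 0.49 with RBM33 in the authors' deposited tables.

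Log2 fold changes increased with the listed gene length, the number of bases the tables give for each gene. Across the 65 genes, Spearman's rho of log2 fold change with listed length was 0.64 for ALKBH5 and 0.59 with RBM33 in the authors' deposited tables. Across the 13210 protein-coding genes it was 0.41 and 0.45, and these points share libraries and normalization. Among the 17 inner centromere and kinetochore genes rho was 0.84 and 0.76, and among the 34 KIF genes it was 0.35 and 0.23. With average log2 CPM, rho was -0.06 and -0.07 across the 65 genes, -0.41 and -0.34 across the KIF genes, 0.11 and 0.01 across the inner centromere and kinetochore genes, and -0.27 and -0.27 across protein-coding genes. The listed length is not the length of a single mRNA, since KIF5C is listed at 33151 bases.

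Protein-coding genes were divided into 5 equal classes of listed length. In the shortest class, 51 to 2919 bases, none of the 10 genes described here was positive and 9 were negative for ALKBH5, and 6 were negative with RBM33 in the authors' deposited tables. Protein-coding genes of that class were negative in 53.6% for ALKBH5 and 52.3% for RBM33. In the longest class, 8652 to 55886 bases, 12 of 16 were positive for ALKBH5 and 10 with RBM33 in the authors' deposited tables, against 52.6% and 46.8% of protein-coding genes in it. KIF2A, listed at 13050 bases, was the 1 negative gene of that class in both tables. KIF2A overlaps DIMT1 on the opposite strand (-1.17 and -1.32) and AC114982.2 on its own strand (-0.41 and -0.35). Reads of these genes may be mixed. CENPI, at 4321 bases, was the 1 positive gene of the second class in both tables. Measured from the median of its class, CENPI was the highest of the 65 genes, at 1.92 for ALKBH5 and 1.83 for RBM33. MAD2L1 was the lowest, at -1.45 and -1.77. The median deviation of all 65 genes was 0.02 for ALKBH5 and 0.20 for RBM33. 

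**Figure D3:**
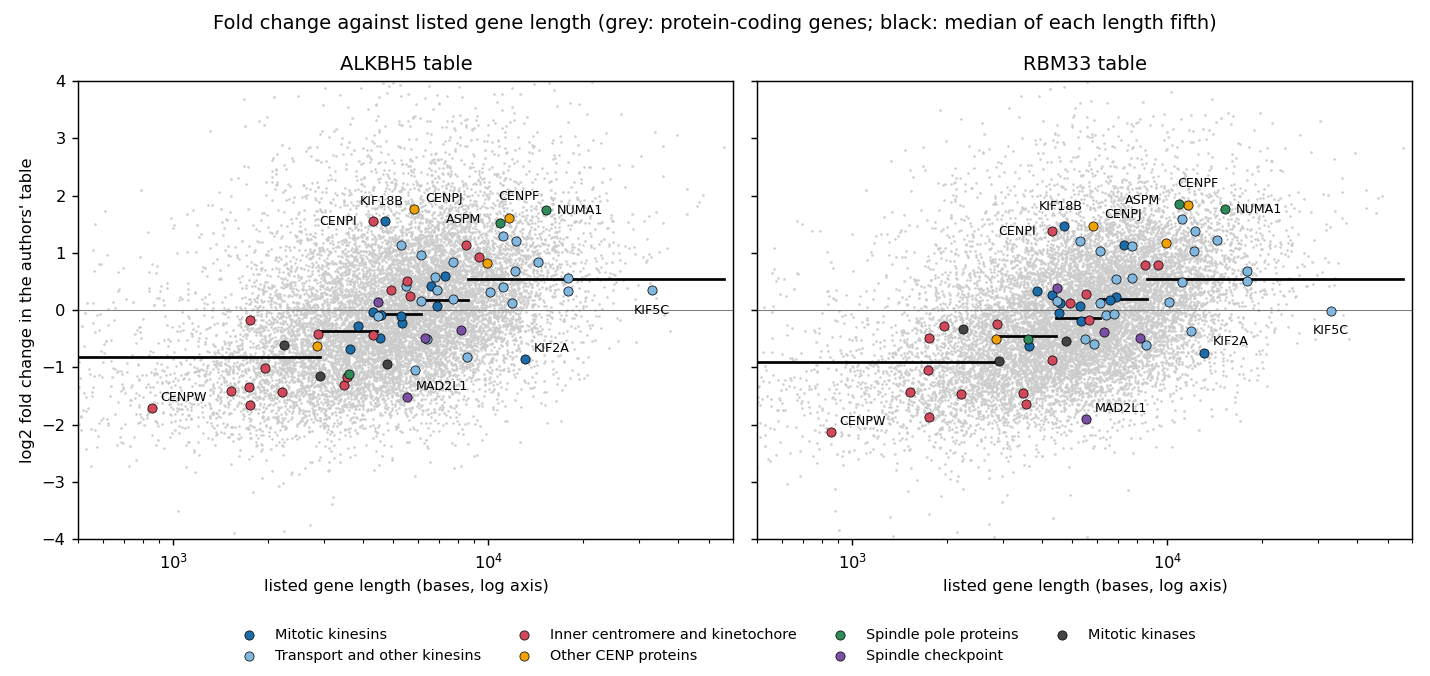
Log2 fold change (y axis) against listed gene length in bases (x axis, log scale) for the 65 genes, coloured by role, over protein-coding genes in grey; black lines are medians of the 5 length classes. CENPI lies far above and MAD2L1 far below the line of their class in both tables, and the axes leave out 94 protein-coding genes for ALKBH5 and 70 for RBM33.

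Levels are averages over the libraries of each fit, and they do not separate pull-down from input. Per kilobase of listed length, TPX2 was the most abundant of the 65 mRNAs, at 59.7 CPM per kilobase in the authors' deposited table on ALKBH5 and 52.6 in that for RBM33. The lowest were KIF6 at 0.40 for ALKBH5 and KIF26B at 0.423 with RBM33 in the authors' deposited tables. The median of the 65 genes was 7.62 and 8.04 CPM per kilobase, beside 4.09 and 4.08 for protein-coding genes. In such bulk lysates, fewer cells expressing an mRNA and less of it per cell cannot be told apart. The positive and negative members KIF5A and KIF5B differed in level, with 1.73 and 1.22 CPM per kilobase for KIF5A and 34.0 and 35.0 for KIF5B in the authors' deposited tables.

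Other genes of the mitotic and motor machinery, listed by function, were counted in the same way, against protein-coding genes positive in 27.5% with ALKBH5 and 21.5% with RBM33, and negative in 33.3% and 31.2%. Of 27 genes of other kinetochore complexes, 2 were positive and 17 negative in each of the authors' deposited tables. This is 63.0% negative, and its genes are short, with a median listed length of 3362 bases and 17 genes in the 2 shortest classes, where 40.7% to 53.6% of protein-coding genes were negative for ALKBH5 and 39.7% to 52.3% for RBM33. Its medians were -0.70 and -0.75, and -0.28 and -0.38 when measured from the length-class medians. The 2 positive genes were KNTC1, a subunit of the Rod-Zwilch-ZW10 complex, at 2.31 and 1.97, and KNL1, the platform for BUB proteins, at 0.57 and 0.64 in the authors' deposited tables. The lowest were SKA2, of the microtubule-binding Ska complex, at -1.98 for ALKBH5, and MIS18A, which licenses CENP-A loading, at -2.12 with RBM33 in the authors' deposited tables.

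Of 8 chromosomal passenger and central spindle genes, 1 was positive and 3 negative with ALKBH5 in the authors' deposited tables, and 2 and 2 with RBM33. Protein-coding genes were positive in 27.5% and 21.5% and negative in 33.3% and 31.2%. CIT, the citron kinase of cytokinesis, stood at 1.69 and 1.72, and BIRC5, the survivin subunit of the passenger complex, at -1.72 and -1.34 in the authors' deposited tables. INCENP, the scaffold of that complex, was positive for RBM33 only, with -0.11 for ALKBH5 (adjusted p = 0.503) and 0.66 for RBM33 (adjusted p = 0.00646) in the authors' deposited tables. Of 27 other spindle genes, 9 were positive and 12 negative with ALKBH5, and 5 and 11 with RBM33. TUBGCP6, of the gamma-tubulin ring complex, was highest at 3.39 and 2.82, and HAUS1, of the augmin complex, lowest at -1.80 and -1.73 in the authors' deposited tables. Measured from the length-class medians, the medians of the 8 passenger and central spindle genes were -0.06 and 0.47 and those of the 27 other spindle genes -0.24 and -0.40.

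Of 9 C-terminal kinesins and kinesin partners, 5 were positive and none negative for ALKBH5, and 2 were positive and none negative with RBM33 in the authors' deposited tables. Their positive shares were 55.6% and 22.2%, beside 27.5% and 21.5% of protein-coding genes, of which 33.3% and 31.2% were negative. KIFC2 was highest at 1.78 and 1.53, and the light chain KLC1 was also positive in both at 0.97 and 0.74 in the authors' deposited tables. Cytoplasmic dynein and dynactin had 3 positive and 10 negative of 22 genes with ALKBH5, with 3 and 11 for RBM33. DYNC1H1, the dynein heavy chain, was highest at 1.08 and 1.53, and the light chain DYNLT3 lowest at -2.65 and -1.96 in the authors' deposited tables. Of 16 condensin and cohesin genes, 3 were positive and 8 negative with ALKBH5, and 2 and 4 with RBM33. From the length-class medians, the medians of the last 3 lists were 0.43 and 0.20, -0.50 and -0.64, and -0.49 and -0.25. RAD21, the cohesin subunit cleaved at anaphase, was lowest at -1.36 and -0.98 in the authors' deposited tables.

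**Figure D4:**
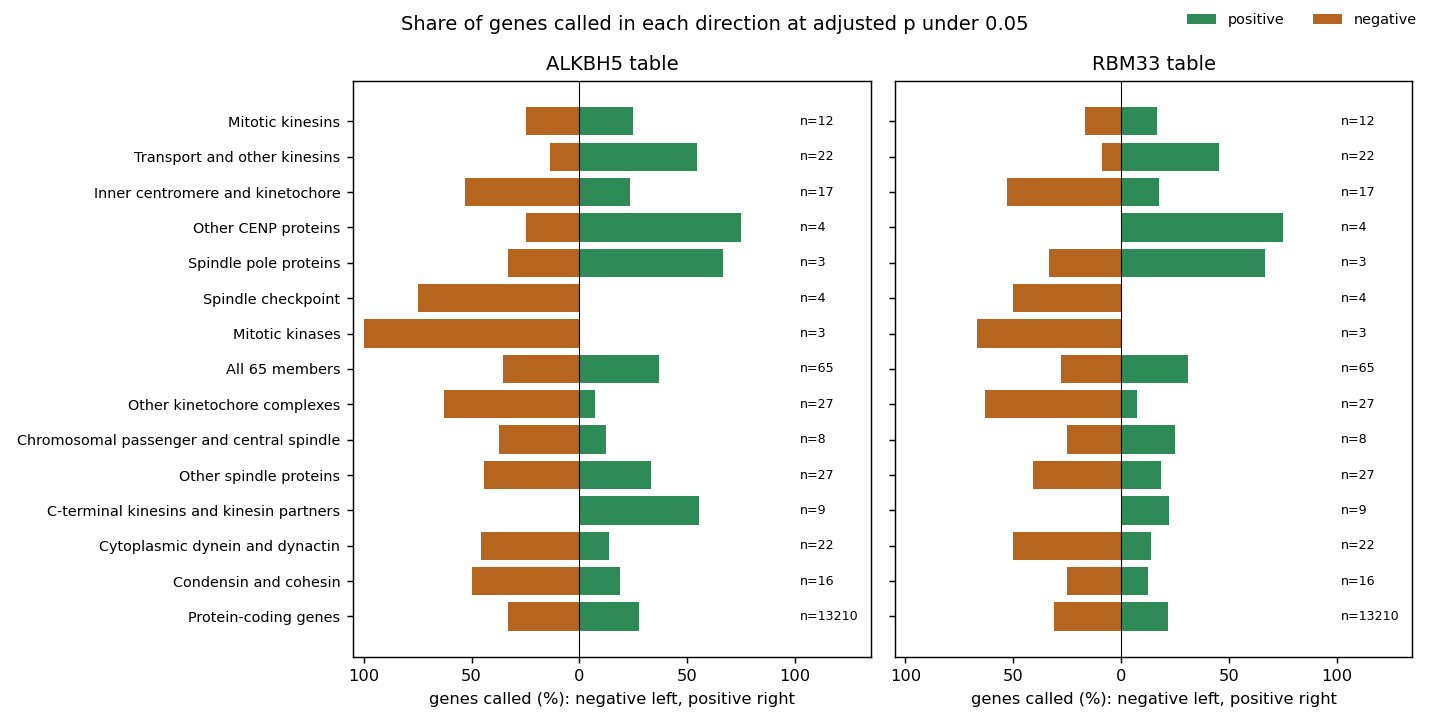
Share of genes called negative (left) and positive (right), in percent (x axis), for each role group, the other mitotic and motor gene lists and all protein-coding genes (y axis), with the number of genes beside each bar. Transport and other kinesins reach 54.5% positive for ALKBH5 and 45.5% for RBM33, and other kinetochore complexes 63.0% negative in both.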

How the data were processed

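RIP-seq libraries were made from cells labelled UM-SCC-1. The submitters' processing notes name edgeR 3.24.3, Subread 1.6.4 with featureCounts, HISAT2 2.1.0 and cutadapt 1.18, and build hg38, with no order. They and the other sources used here do not give the annotation release, low-count filter, strand setting or normalization. The deposited files hold, per the file headers, log2 fold changes and mean abundances in log2 CPM. Their F is a score that the authors deposited beside each p-value, and the adjusted p is its Benjamini-Hochberg adjustment, which was checked by recomputing it over all 16324 genes.

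Genes were counted as called where the adjusted p was under 0.05, and directions are signs of the fold changes. Standard errors were worked out as the absolute log2 fold change over the square root of F, and 95% intervals with total degrees of freedom worked out from F and p (median 13.2 for ALKBH5 and 11.2 for RBM33). Average CPM was divided by listed length for levels. The work used Python 3.11.15, numpy 2.4.6, scipy 1.17.1, pandas 2.3.3 and matplotlib 3.10.9, and the scripts were tested on simulated data. Every gene of the rule could be named, and of each other list the highest and lowest genes and those of counts of 5 or fewer. Genes that overlap another were named after their values were seen. The genes and lists were chosen with earlier results of these data known. Alternatives were a stricter threshold of 0.01, a minimum of 1 log2 unit, adjustment over protein-coding genes, a filter on abundance, and centring on all protein-coding genes or on those of like length.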

Additional observations from a re-analysis of the deposited data

How the results depend on the processing

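No paired analysis was possible because single libraries have no values in the tables, and for the same reason no replicate could be left out. With a minimum of 1 log2 unit, 22 of the 65 genes were called for ALKBH5 (10 positive, 12 negative). For RBM33, 23 were called (15 positive, 8 negative). Of the 13210 protein-coding genes, 2176 were positive and 2346 negative for ALKBH5 at this minimum, and 1759 and 2478 for RBM33. The other mitotic and motor lists, of 109 genes, fell from 73 calls to 29 for ALKBH5 (6 positive, 23 negative). For RBM33 they fell from 61 to 29 (7 positive, 22 negative). At a threshold of 0.01, 12 of the 47 calls of the 65 genes were lost for ALKBH5 and 9 of 38 for RBM33. The share of calls lost over protein-coding genes was not worked out. Measured from the median of protein-coding genes in their length class, the sign turned for CENPB (0.40), KIF21A (-0.22), CENPV (0.18), KIF5C (-0.19) and AURKB (0.21) for ALKBH5 and for CENPM (0.41) for RBM33. Cause was not tested in any of these. Keeping only genes of at least median abundance left 55 of the 65 genes for ALKBH5 and 54 for RBM33, with medians of 0.07 and 0.10. Of these, 20 and 14 were positive and 19 and 17 negative. Negative calls then outnumbered positive ones for RBM33, as they did over protein-coding genes without the filter (31.2% against 21.5%). The shares of protein-coding genes called under this filter were not worked out. Adjustment over protein-coding genes changed no call among the 65 genes. Centring on their median leaves the adjusted p as it is and shifts all genes by less than any called value, so it could change no call. Depth per library is unknown, so what depth limits cannot be stated. Vector background, contrast and direction are not stated in the tables.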
